A study of Mus musculus with 8 samples.

Results

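Peroxiredoxins and other antioxidant enzymes were followed in microglia that carried injected plasma protein and in microglia that did not. The genes were Prdx1, Prdx2, Prdx5 and Prdx6, Gpx1 and Gpx4, Txn1 and Txnrd1, and Sod1 and Sod2. They were chosen by name, as 10 of the 35583 genes of the count table, and all 10 were among the 13277 genes with enough counts to be tested. In plasma-positive microglia Gpx1, a peroxidase that reduces hydrogen peroxide with glutathione, rose 1.56-fold (95% interval 1.31 to 1.86), and Prdx5, a peroxiredoxin of mitochondria, peroxisomes and cytosol, rose 1.73-fold (1.34 to 2.23). Neither passed after a correction for gene length and GC content, and on leaving out 1 library at a time the call held in 2 of 8 fits for Gpx1 and in 0 of 8 for Prdx5. No member fell. Prdx1, Prdx2 and Prdx6 also had every plasma-positive library above every plasma-negative one, but did not pass the test at an adjusted p under 0.05. The superoxide dismutase Sod1 had a fold of 1.04 (interval 0.8 to 1.36).

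Aerobic cells form superoxide and hydrogen peroxide in the respiratory chain and, in phagocytes such as microglia, at the NADPH oxidase. Superoxide dismutases turn superoxide into hydrogen peroxide, Sod1 mainly in the cytosol and Sod2 in the mitochondrial matrix. Peroxiredoxins reduce the peroxide with a cysteine that is in most cases recharged by thioredoxin and thioredoxin reductase, and glutathione peroxidases reduce it with glutathione. The transcription factor NRF2, held in check by KEAP1, binds antioxidant response elements in many genes of this system.

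All 8 libraries were Smart-seq2 libraries, a full-length method for little RNA, of hypothalamic microglia. The mice were young and wild-type, and had received plasma protein coupled to a dye 20 hours before. The 4 plasma-negative and the 4 plasma-positive libraries therefore share genotype, region, injection and time, and differ in whether the cells carried the label. The labels do not say whether libraries came from separate animals or pools, so p-values measure the spread between these libraries, which may be technical. Total counts ranged from 2963094 to 21422738 per library, and the members' counts from 78 (Gpx4) to 9701 (Gpx1). The 8 microglia markers summed to 58449 to 69422 CPM (counts scaled to a common library size with TMM factors) in plasma-negative and 64685 to 69651 CPM in plasma-positive libraries, and 1 of the 8, Csf1r, was called higher. Plasma-positive replicate 3 stood apart with 962 CPM of 8 monocyte or neutrophil markers, against 0.11 to 13.8 CPM in the other libraries, and Retnlg was at 0 in all. Plasma-positive replicate 2 stood apart with 289 CPM of 8 neuron markers. Plasma-positive replicates 1, 3 and 4 had 73.4, 6.45 and 5.47 CPM of them, and plasma-negative libraries 4.04 to 34.0 CPM. The 8 oligodendrocyte markers summed to 158 to 230 CPM in plasma-negative and 224 to 560 CPM in plasma-positive libraries, highest in plasma-positive replicate 2, and 1 of the 7 tested was called higher. The 6 border macrophage markers summed to 0.881 to 3.61 CPM in the plasma-negative group and to 1.76, 12.8, 1.98 and 16.5 CPM in plasma-positive replicates 1 to 4, mostly Mrc1, with Cd163 and Lyve1 at 0 in all. The 8 endothelial markers summed to 18.5 to 37.0 CPM in the plasma-negative and 19.0 to 59.5 CPM in the plasma-positive group. The part of these other cells in the results was not tested, and values without plasma-positive replicates 2 and 3 are given below.

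Sequences near the start sites are shown for the 2 genes that rose, Gpx1 and Prdx5, for Prdx1, which lay higher in every plasma-positive library, and for Sod1, whose groups overlapped. Each run goes from 250 bases before the annotated start to 30 bases after it, 5′ to 3′ in the direction of the gene, from RefSeq on mouse build GRCm38.p6. Capitals mark matches on either strand to the core of the antioxidant response element, TGACNNNGC, and to the GC box, GGGCGG. On the minus strand they read reversed and complemented.
Gpx1: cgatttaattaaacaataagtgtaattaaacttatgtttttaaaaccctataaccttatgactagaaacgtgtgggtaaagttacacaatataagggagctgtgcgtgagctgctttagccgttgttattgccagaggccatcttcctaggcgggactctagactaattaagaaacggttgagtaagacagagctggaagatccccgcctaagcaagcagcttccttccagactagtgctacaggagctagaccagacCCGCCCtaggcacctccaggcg
Prdx5: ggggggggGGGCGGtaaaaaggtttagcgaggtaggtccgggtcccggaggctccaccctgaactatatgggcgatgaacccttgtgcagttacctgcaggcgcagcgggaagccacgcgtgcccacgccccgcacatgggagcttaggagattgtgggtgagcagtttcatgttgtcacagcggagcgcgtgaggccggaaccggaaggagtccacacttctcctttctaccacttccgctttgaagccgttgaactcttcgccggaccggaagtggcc
Prdx1: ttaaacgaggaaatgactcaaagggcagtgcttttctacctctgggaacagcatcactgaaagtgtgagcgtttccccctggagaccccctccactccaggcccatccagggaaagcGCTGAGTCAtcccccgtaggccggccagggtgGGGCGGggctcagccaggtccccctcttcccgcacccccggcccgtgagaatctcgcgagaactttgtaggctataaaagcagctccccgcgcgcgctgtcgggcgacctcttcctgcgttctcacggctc
Sod1: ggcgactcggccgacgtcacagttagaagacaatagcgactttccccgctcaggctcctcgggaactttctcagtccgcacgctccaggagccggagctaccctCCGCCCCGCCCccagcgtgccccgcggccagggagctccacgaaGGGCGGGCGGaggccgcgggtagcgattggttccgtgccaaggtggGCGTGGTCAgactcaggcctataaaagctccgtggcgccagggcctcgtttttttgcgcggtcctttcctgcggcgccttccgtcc

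These windows are chr9:108338830-108339109 (plus strand) for Gpx1, chr19:6910077-6910356 (minus strand) for Prdx5, chr4:116685349-116685628 (plus strand) for Prdx1 and chr16:90220512-90220791 (plus strand) for Sod1. The capitals of Gpx1 and Prdx5 are GC boxes alone, whereas Prdx1 and Sod1 also hold an antioxidant response element core, at chr4:116685466-116685474 and chr16:90220706-90220714. Both cores lie on the minus strand and neither overlaps a GC box. The match in Prdx1, GCTGAGTCA as printed, also contains the AP-1 site TGACTCA on its other strand. Another TGACTCA, not part of a core, stands unmarked near the 5′ end of the same window. In Sod1 the 4 GC boxes form a pair of overlapping matches on each strand. Windows of 9 members were in the table, and the shares beside them cover all genes with a window, tested here or not. The core was found in 3 of the 9 (Prdx1, Txnrd1 and Sod1), beside 3512 of 27025 genes in the table, and the GC box in 9 of the 9, beside 37.3% of genes. The CCAAT box (CCAAT) was found in 4 of the 9, beside 39.7% of genes, and the TATA box (TATAAA) in 3 of the 9, beside 15.1%. Members with several start sites, such as Gpx4 and Txnrd1, had more than 1 window, so the shares per gene describe the letters and not the number of sites bound.

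Gpx1 (ENSMUSG00000063856, chr9:108338903-108340343), a cytosolic and mitochondrial selenoprotein, was the most abundant member. Its level was 254, 248, 301 and 320 CPM in plasma-negative replicates 1 to 4 and 392, 417, 492 and 448 CPM in plasma-positive replicates 1 to 4. The groups did not overlap, and the lowest plasma-positive library lay above the highest plasma-negative one. Means were 281 ± 35.4 and 438 ± 43.2 CPM (SD, n = 4 per group), a log2 fold change of 0.64 with a standard error of 0.12 (edgeR quasi-likelihood test, adjusted p = 0.0229). In bulk libraries, a higher level in each cell and a larger share of cells with a high level cannot be told apart. The call for Gpx1 held in 2 of the 8 fits that left out 1 library, those without plasma-negative replicate 4 and without plasma-positive replicate 1, and the adjusted p over the 8 fits ran from 0.021 to 0.0706 (edgeR).

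Gpx4 (chr10:80047166-80056439), which reduces lipid peroxides in membranes and thereby restrains ferroptosis, was the scarcer glutathione peroxidase. It measured 28.9, 20.1, 23.8 and 26.2 CPM in plasma-negative and 43.2, 42.7, 27.9 and 37.8 CPM in plasma-positive replicates 1 to 4. Of the plasma-positive libraries only replicate 3, the library with neutrophil markers, lay within the plasma-negative range. The log2 fold change was 0.62 (SE 0.26), and Gpx4 did not pass the test (edgeR adjusted p = 0.312). RefSeq lists 2 pseudogenes of Gpx4, with which reads could be shared.

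Prdx5 (ENSMUSG00000024953, chr19:6906697-6910106), whose product reduces hydrogen peroxide, alkyl hydroperoxides and peroxynitrite, was the member with the tightest plasma-positive libraries. It measured 136, 137, 81.4 and 139 CPM in plasma-negative replicates 1 to 4 and 214, 207, 217 and 213 CPM in plasma-positive replicates 1 to 4. The plasma-positive values lay close together, and plasma-negative replicate 3 lay well below the other plasma-negative libraries. Means were 123 ± 28.0 and 213 ± 4.23 CPM (SD, n = 4 per group), which gave a log2 fold change of 0.79 with a standard error of 0.17 (edgeR adjusted p = 0.0425). The call was lost on leaving out any of the 8 libraries, with adjusted p from 0.0506 to 0.112 and log2 fold changes from 0.64, without plasma-negative replicate 3, to 0.85 (edgeR). It was also lost with relative log expression factors (adjusted p = 0.052) and with library totals (0.0667) in place of TMM factors. Of its exon bases, 19.1% overlap exons of Trmt112 on the opposite strand, and the counting is not stated to use strand. Trmt112 itself had a log2 fold change of 0.25 (SE 0.34, adjusted p = 0.818).

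Prdx1 and Prdx2 are the closely related cytosolic peroxiredoxins that thioredoxin recharges, and Prdx2 is also abundant in red blood cells. Prdx1 (chr4:116685544-116700822) measured 88.6, 86.5, 72.8 and 103 CPM in plasma-negative and 122, 126, 128 and 129 CPM in plasma-positive replicates 1 to 4. As for Prdx5, the plasma-positive libraries were close together, with a coefficient of variation of 2.62% against 14.2% in plasma-negative ones. The log2 fold change was 0.53 (SE 0.15, edgeR adjusted p = 0.11), with a 1.44-fold difference (95% interval 1.16 to 1.8). Prdx2 (chr8:84969587-84974834) measured 58.0, 48.6, 51.6 and 41.1 CPM in plasma-negative and 76.1, 83.3, 72.4 and 93.7 CPM in plasma-positive replicates 1 to 4. Here, too, no plasma-negative library reached the lowest plasma-positive one. Its log2 fold change was 0.70 (SE 0.18, edgeR adjusted p = 0.0849). DESeq2 called both genes, with adjusted p of 0.0288 for Prdx1 and 0.0166 for Prdx2. Erythroid markers summed to at most 4.82 CPM in any library, and Hbb-bt and Slc4a1 were at 0 in all 8. RefSeq lists 1 pseudogene of Prdx1 and 2 of Prdx2, and 11.5% of the exon bases of Prdx2 overlap Rnaseh2a, so these values are less certain where reads are shared.

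Prdx6 (chr1:161240112-161251219), the peroxiredoxin with a single active cysteine that uses glutathione and also acts as a phospholipase, had a wide spread. Its fold was the largest of the members in the edgeR fit with all libraries. It measured 36.3, 21.1, 10.5 and 32.3 CPM in plasma-negative and 46.8, 39.3, 48.8 and 47.0 CPM in plasma-positive replicates 1 to 4. The groups did not overlap, but the plasma-negative libraries differed among themselves more than for any other member, with a coefficient of variation of 46.3% against 9.2% in the plasma-positive ones. The log2 fold change of 0.87 had a standard error of 0.35 and did not pass the test (edgeR adjusted p = 0.289). Without plasma-negative replicate 3 it was 0.61, below Prdx2 (0.72), Gpx1 (0.68) and Prdx5 (0.64). RefSeq lists 1 pseudogene of Prdx6, with which reads could be shared. Prdx6 is abundant in astrocytes. The 8 astrocyte markers summed to 214 to 327 CPM in the plasma-negative and 208 to 299 CPM in the plasma-positive group, most of it from Slc1a3 (164 to 317 CPM). Slc1a2 was at 0.349 to 7.74 CPM in the plasma-negative group and at 19.4, 67.5, 1.27 and 2.23 CPM in plasma-positive replicates 1 to 4. Aldoc reached 42.0 CPM in plasma-positive replicate 2 and at most 10.9 CPM elsewhere.

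**Figure D1:**
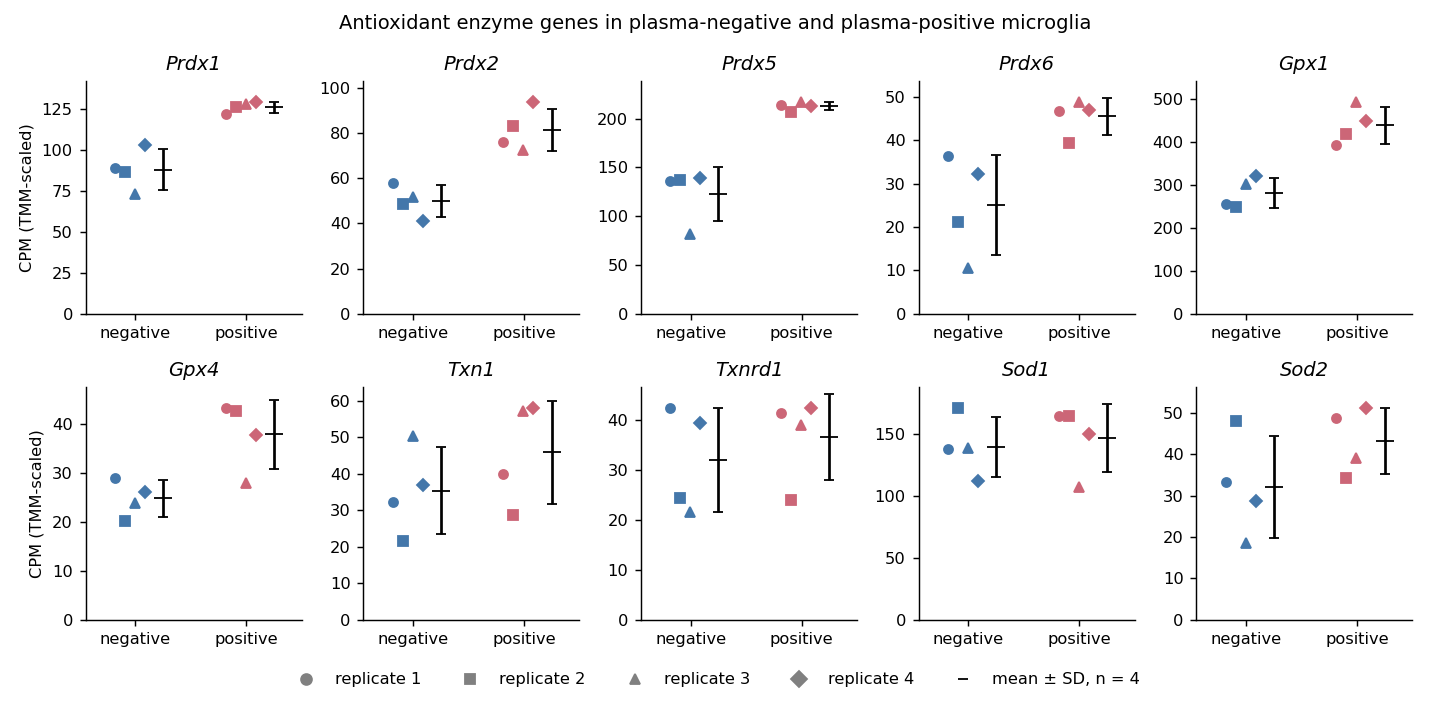
Level of each of the 10 antioxidant enzyme genes in every library, in TMM-scaled CPM on linear axes that start at 0, with plasma-negative libraries in blue, plasma-positive libraries in red, marker shapes for the replicate number, and bars for mean ± SD (n = 4). The groups do not overlap for Prdx1, Prdx2, Prdx5, Prdx6 and Gpx1, and overlap for Gpx4, Txn1, Txnrd1, Sod1 and Sod2.

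Thioredoxin 1 (Txn1, chr4:57943373-57956411) donates electrons to Prdx1 and Prdx2 and to other proteins with oxidised cysteines. It measured 32.2, 21.7, 50.4 and 37.0 CPM in plasma-negative and 39.9, 28.8, 57.1 and 57.9 CPM in plasma-positive replicates 1 to 4, with groups that overlapped widely. Its log2 fold change was 0.38 (SE 0.31, edgeR adjusted p = 0.67), and RefSeq lists 1 pseudogene of it. Txnrd1 (chr10:82833951-82897712), the cytosolic selenoprotein that reduces thioredoxin 1 with NADPH, measured 42.4, 24.5, 21.7 and 39.4 CPM in plasma-negative and 41.4, 24.0, 39.0 and 42.4 CPM in plasma-positive replicates 1 to 4. The ranges almost coincided, and the log2 fold change was 0.20 (SE 0.30, edgeR adjusted p = 0.846). Its 95% interval reached from -0.46 to 0.86.

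Neither superoxide dismutase passed the test. Sod1 (chr16:90220754-90226329), the copper and zinc enzyme, measured 138, 171, 139 and 112 CPM in plasma-negative and 165, 165, 107 and 150 CPM in plasma-positive replicates 1 to 4. The highest value was in a plasma-negative library and the lowest in a plasma-positive one. The log2 fold change was 0.06 (SE 0.18, 95% interval -0.32 to 0.45, edgeR adjusted p = 0.926), and it turned to -0.06 with library totals in place of TMM factors and to -0.03 without plasma-negative replicate 4. Sod2 (chr17:13006846-13040063), the manganese enzyme of mitochondria, measured 33.2, 48.1, 18.6 and 28.6 CPM in plasma-negative and 48.8, 34.3, 39.1 and 51.1 CPM in plasma-positive replicates 1 to 4. Its groups overlapped through plasma-negative replicate 2, and the log2 fold change was 0.43 (SE 0.30, edgeR adjusted p = 0.597).

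**Figure D2:**
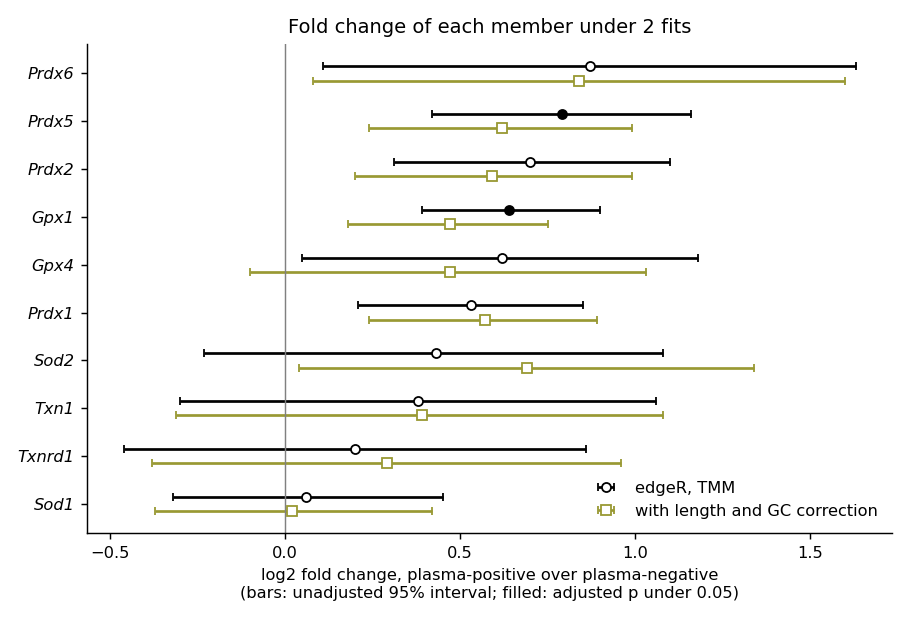
Log2 fold change of each member, plasma-positive over plasma-negative, from the edgeR fit over all tested genes (black circles) and after the length and GC correction (olive squares), with unadjusted 95% intervals as bars and filled points for an adjusted p under 0.05. The filled points are Gpx1 (0.64) and Prdx5 (0.79) without the correction, no square is filled, and the intervals of Sod1, Txn1 and Txnrd1 span 0 in both fits.

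Counted together, 2 of the 10 members passed the test, both higher, where 1.41% of all tested genes passed in either direction and 0.844% passed as higher. An unadjusted p under 0.05 with a higher level was found for 6 of 10 members and 7.13% of all genes. Groups without overlap and higher in plasma-positive libraries were found for 5 of 10 members and 5.68% of all genes. The log2 fold change was above 0 for 10 of 10 members and 50.4% of all genes, and its median was 0.57 over the members and 0.006 over all genes. DESeq2 called 4 members (Prdx1, Prdx2, Prdx5 and Gpx1), and 5.23% of all genes.

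Gene length moved with the comparison. The median log2 fold change over all tested genes was 0.09, 0.10, 0.02 and -0.19 in quartiles of rising exon length, and 4 members (Prdx5, Gpx1, Gpx4 and Txn1) lie in the quartile of the shortest genes and 2 (Txnrd1 and Sod2) in that of the longest. After a correction of each library for exon length and GC content, 0 of 10 members and 0.527% of all genes passed. An unadjusted p under 0.05 with a higher level was then found for 6 of 10 members, with Sod2 in place of Gpx4, and for 6.88% of all genes. Gpx1 then had a log2 fold change of 0.47 (edgeR adjusted p = 0.165) and Prdx5 one of 0.62 (adjusted p = 0.167). Plasma-positive replicates 2 and 3 held the most neuron and the most neutrophil markers, and plasma-positive replicate 1 came next for neuron markers with 73.4 CPM. Without replicates 2 and 3, and with replicate 1 kept, the log2 fold changes were 0.59 for Gpx1 (edgeR adjusted p = 0.213) and 0.80 for Prdx5 (adjusted p = 0.274). No member and 15 genes in all then passed (edgeR), and 4 of 10 members and 4.38% of all genes were higher at an unadjusted p under 0.05. Without plasma-positive replicate 4, the library with the most border macrophage markers, the log2 fold changes were 0.63 for Gpx1 (edgeR adjusted p = 0.0665) and 0.79 for Prdx5 (adjusted p = 0.0996).

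**Figure D3:**
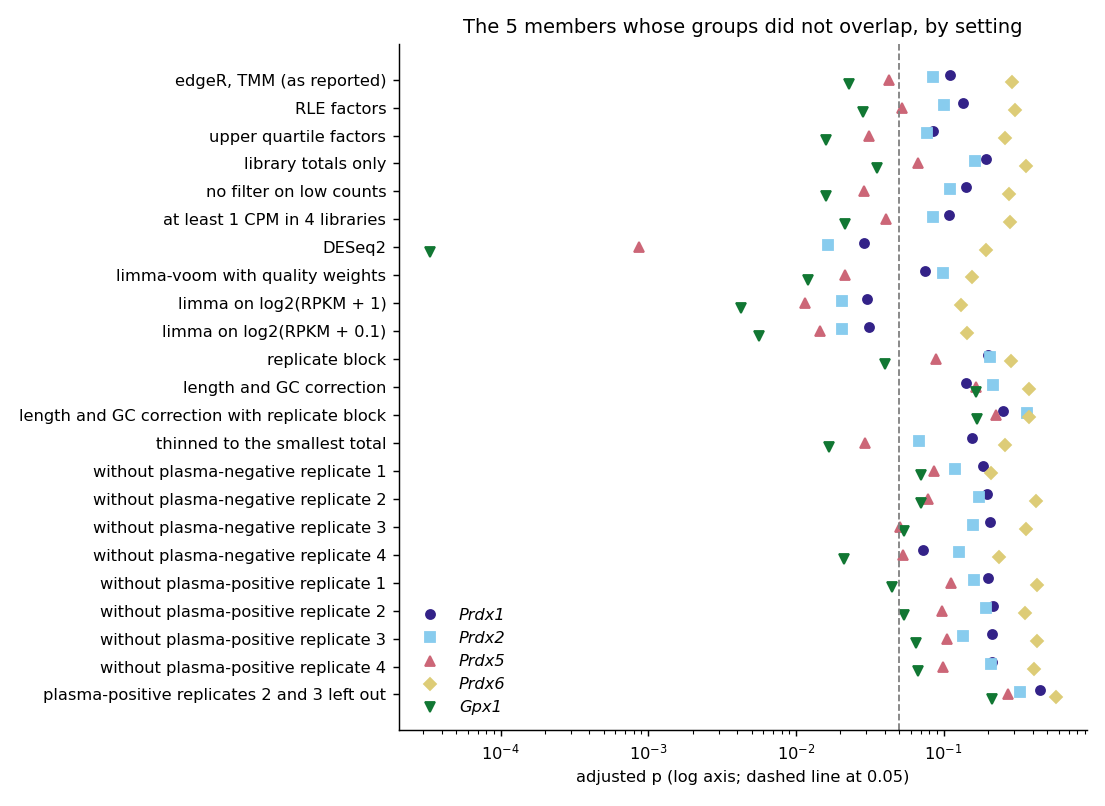
Adjusted p of the 5 members whose groups did not overlap, under each way of processing, on a log axis with the threshold of 0.05 as a line. Gpx1 and Prdx5 move across the line between settings, and Prdx1 and Prdx2 fall below it with DESeq2 (0.0288 and 0.0166) and on the RPKM values.

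Levels were compared between genes per length, as RPKM (reads scaled to exon length in kilobases and to library size). The library size behind the deposited RPKM is not the sum of the deposited counts. Over all tested genes the median log2 fold change on log2 of RPKM plus 1 was 0.11, so group differences run high on this scale. Gpx1 led in both groups, at 143 ± 19.8 RPKM in plasma-negative and 242 ± 23.8 RPKM in plasma-positive microglia (SD, n = 4). Prdx5 followed at 42.2 ± 9.82 and 79.3 ± 1.8 RPKM, below Gpx1 in every library. In plasma-negative microglia the order went on with Sod1 (25.8 ± 4.09), Txn1 (24.6 ± 8.29), Prdx1 (21.1 ± 3.33), Prdx2 (11.9 ± 1.59), Gpx4 (10.5 ± 1.69), Prdx6 (3.83 ± 1.8), Txnrd1 (3.31 ± 1.11) and Sod2 (2.34 ± 0.874 RPKM). Of the 9 pairs of neighbours in that order 6 overlapped, and those that did not were Gpx1 and Prdx5, Prdx1 and Prdx2, and Gpx4 and Prdx6. In plasma-positive microglia Txn1 (34.7 ± 10.3), Prdx1 (33.1 ± 0.891) and Sod1 (29.5 ± 5.59 RPKM) came in that order after Prdx5, with Prdx2, Gpx4, Prdx6, Txnrd1 and Sod2 following as before, and 5 of 9 pairs overlapped. Length here is that of the merged exons of all annotated isoforms, so a gene with long rarely used exons has a lower RPKM.

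**Figure D4:**
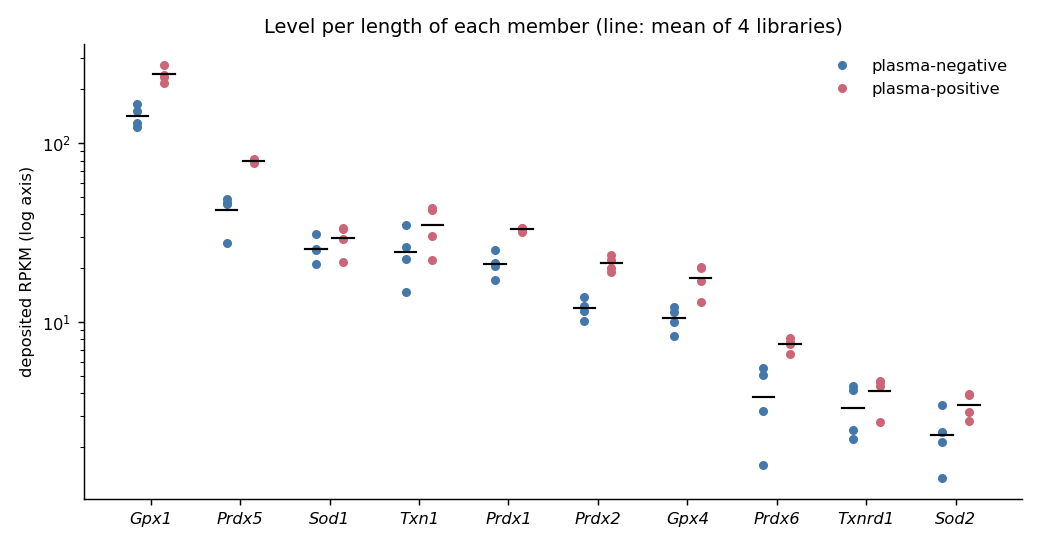
Deposited RPKM of each member in every library on a log axis, with members in the order of their plasma-negative mean, plasma-negative libraries in blue, plasma-positive libraries in red and lines at the means (n = 4). Gpx1 lies above all other members in both groups and Sod2, Txnrd1 and Prdx6 lie lowest.

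The members' shares within each enzyme family overlapped between the groups. Of the summed RPKM of Prdx1 to Prdx6, Prdx5 held 31.5 ± 6.6% of it in the plasma-negative group and 35.8 ± 1.99% in the plasma-positive group, with overlapping ranges. The sum itself was 134 ± 24.2 and 222 ± 8.83 RPKM (SD, n = 4). On log2 of RPKM plus 1 the median log2 fold change over all tested genes was 0.11, against 0.006 on TMM-scaled counts. Differences in RPKM between the groups therefore tend to run higher than those in CPM. Gpx1 held 93.1 ± 1.19% of Gpx1 and Gpx4 in the plasma-negative group and 93.1 ± 1.74% in the plasma-positive group, and Sod1 held 91.8 ± 2.21% and 89.3 ± 2.22% of Sod1 and Sod2. These shares were not tested. The other peroxiredoxins of the family did not pass the test. Prdx3, the mitochondrial member, went from 71.8 ± 28.0 to 90.7 ± 24.5 CPM (log2 fold change 0.35, edgeR adjusted p = 0.686). Prdx4, the member of the endoplasmic reticulum, went from 56.1 ± 13.1 to 84.6 ± 7.3 CPM without overlap (0.60, edgeR adjusted p = 0.19), and was called by limma on log2 of RPKM plus 1 (adjusted p = 0.0493).

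The rest of the antioxidant system was read from 6 further lists, 95 genes of which 78 were tested. Of the 78, 2 were called higher and 0 lower, beside 0.844% of all tested genes called higher and 1.41% called in either direction. A log2 fold change above 0 was found for 54 of the 78 and for 50.4% of all tested genes. The median was 0.13 over the 78 and 0.006 over all tested genes. Of 8 tested peroxide and superoxide enzymes outside the members 0 were called, including catalase (Cat, log2 fold change 0.54, edgeR adjusted p = 0.301) and the copper chaperone of Sod1 (Ccs, -0.07, adjusted p = 0.954). Sulfiredoxin (Srxn1), which repairs overoxidised peroxiredoxins, had 0.841, 0, 0.175 and 0.673 CPM in plasma-negative and 1.54, 2.29, 7.05 and 4.58 CPM in plasma-positive replicates 1 to 4. The groups did not overlap at these low levels, and the log2 fold change of 3.23 had a standard error of 1.24 (edgeR adjusted p = 0.26), or was 4.08 without plasma-negative replicate 1 (adjusted p = 0.278). Srxn1 met the count filter through the plasma-positive libraries and was not tested on thinned counts, so nothing is read from its separation. Of 16 tested thioredoxin and glutaredoxin genes 0 were called, with a median of 0.18. Among them the thioredoxin inhibitor Txnip had a log2 fold change of 0.13 (adjusted p = 0.522), mitochondrial Txn2 one of 0.01 (0.993), glutathione reductase Gsr one of 0.51 (0.518) and Glrx one of 0.79 (edgeR adjusted p = 0.33). Of 17 tested genes of glutathione and NADPH supply 0 were called, with a median of 0.30, and the subunits of the enzyme that limits glutathione synthesis, Gclc and Gclm, had log2 fold changes of 0.07 and 0.04.

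No gene of the NRF2 list passed the test, with 12 tested, beside 1.41% of all tested genes. The median log2 fold change of the list was 0.08. Nfe2l2, which encodes NRF2, went from 189 ± 9.98 to 201 ± 46.8 CPM (0.09, edgeR adjusted p = 0.871), Keap1 had a log2 fold change of 0.08 (0.925) and the repressor Bach1 one of -0.08 (0.916). Hmox1, a heme-degrading enzyme and a widely used NRF2 target, varied between libraries of the same group, from 0 to 18.8 CPM in plasma-negative and from 3.46 to 26.1 CPM in plasma-positive ones. Nqo1, another such target, never exceeded 3 counts per library and was not tested.

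Selenop, the selenium carrier protein, was the 1 gene called of the 17 tested in its list, beside 1.41% of all tested genes. That list holds genes for selenoprotein synthesis and selenoproteins outside the members. Selenop measured 3095, 3524, 3247 and 3962 CPM in plasma-negative and 4835, 4526, 4530 and 4706 CPM in plasma-positive replicates 1 to 4. The groups did not overlap, and the log2 fold change was 0.43 (SE 0.07, edgeR adjusted p = 0.0133), or 0.43 after the length and GC correction (adjusted p = 0.0277). The call was lost without plasma-negative replicate 3 (adjusted p = 0.055), without plasma-positive replicate 1 (0.054), and without plasma-positive replicates 2 and 3 together (edgeR adjusted p = 0.111). Of its exon bases, 15.4% overlap exons of Ccdc152 on the opposite strand, which also rose (0.42, edgeR adjusted p = 0.0376). Without strand, reads from the shared bases cannot be assigned to either gene. Among 8 tested genes of oxidant sources, Rac2, the small GTPase that activates the phagocyte NADPH oxidase, was the 1 called. It rose from 166 ± 13.2 to 238 ± 13.7 CPM (log2 fold change 0.53, SE 0.11, edgeR adjusted p = 0.043), and leaving out any library other than plasma-negative replicate 4 ended the call (0.0872 to 0.128), as did the length and GC correction (edgeR adjusted p = 0.219), library totals (0.0921), relative log expression factors (0.0569), thinned counts (0.0552) and no filter on low counts (0.0516). The catalytic subunit of that oxidase, Cybb, had 2.48, 5.22, 0 and 0 CPM in plasma-negative and 15.8, 15.9, 30.6 and 10.1 CPM in plasma-positive replicates 1 to 4. Its highest value was in the library with neutrophil markers, and it did not pass the test (log2 fold change 3.14, SE 1.12, edgeR adjusted p = 0.223). DESeq2 called it (adjusted p = 0.0367), as did limma on log2 of RPKM plus 1 (0.0227) and plus 0.1 (0.0371). With plasma-negative libraries at 0, Cybb met the count filter through the plasma-positive libraries, so these calls are not separate support. The log2 fold change of Cybb was 1.47 on log2 of RPKM plus 1, 5.32 with limma-voom, 4.23 with the replicate block and 4.31 with block and correction. Without plasma-negative replicate 2 it was 4.21 (edgeR adjusted p = 0.173). Its partner Cyba was abundant and had a log2 fold change of 0.12 (edgeR adjusted p = 0.542).

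**Figure D5:**
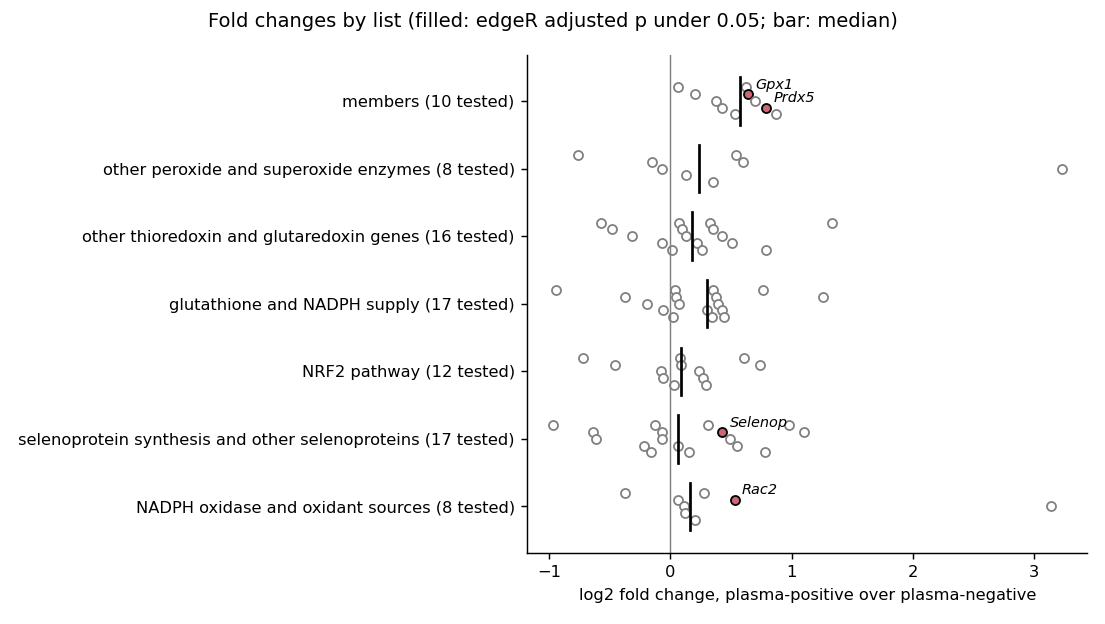
Log2 fold change, plasma-positive over plasma-negative, of every tested gene of the members and of the 6 further lists, each point a gene, with a bar at the list's median and filled points for an edgeR adjusted p under 0.05. The filled points are Gpx1, Prdx5, Selenop and Rac2, and the members' median of 0.57 lies to the right of the medians of the other lists, which run from 0.06 to 0.30.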

How the data were processed

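The count table holds read counts per gene, 1 column per library, that the authors deposited without normalization, and the RPKM table holds the authors' values scaled to exon length and library size for the same genes, per the file headers. Both tables also hold the authors' deposited StDev columns, which are close to 0 and were not used. STAR, HTSeq, Trim Galore, bcl2fastq and build mm10 are named, without versions, per the submitters' processing notes. Reads were amplified and carry no molecular identifiers, so counts are not counts of molecules.

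Counts of all genes were fitted with edgeR 4.0.16 in R 4.3.3 (TMM factors, default filter by group, quasi-likelihood test, no covariate), tested on simulated data, and adjusted by the Benjamini-Hochberg method over all 13277 tested genes. Calls were made at adjusted p under 0.05. Intervals use the fit's degrees of freedom. Exon length, GC content and overlaps come from GENCODE M21 (GRCm38), and windows at start sites from RefSeq. Gene coordinates are those of the deposited tables. Alternatives were other normalizations, filters and thresholds, DESeq2 1.42.0, limma 3.58.1 (voom with quality weights, and log2 of RPKM plus 1 or 0.1), a loess correction for length and GC content (span 0.3), thinning, a replicate block and leaving out each library. Leaving out plasma-positive replicates 2 and 3 together was added after seeing the data.

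The members and lists were chosen with earlier results of these data known. The genes named are the 10 members, 18 further genes fixed by name, and up to 3 called genes of each of the 6 lists, plus the overlapping neighbours and marker genes that a value rests on. 1 marker gene is not reported here.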

Additional observations from a re-analysis of the deposited data

Results flagged for a closer look

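Prdx5 in plasma-negative replicate 3 measured 81.4 CPM, far below the other 3 plasma-negative libraries, of which the nearest was at 136 CPM. The NRF2 target Nqo1 measured 0.126 CPM in plasma-negative replicate 2 and 0.335 CPM in plasma-positive replicate 4, with 0 in the other 3 libraries of each group. These are 2 and 3 counts, and with the other libraries at 0 any single count would stand apart, so nothing is read from them. The Prdx5 value stands apart from the rest of its group of 4 by Dixon's criterion, which chance meets in about 1 in 20 groups, and 60 groups were examined.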

How the results depend on the processing

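The 9 members other than Sod1 kept a positive log2 fold change under all 22 alternatives, and the calls depended on the setting. Beside 187 genes (112 higher), 2 members and 2 genes of the other lists, the counts of genes, members and other listed genes were 694, 4 and 4 with DESeq2, 447, 4 and 7 on log2 of RPKM plus 1, and 432, 4 and 6 plus 0.1. They were 70, 0 and 1 with the length and GC correction, 46, 0 and 0 at an adjusted p under 0.01, and 15, 0 and 0 without plasma-positive replicates 2 and 3. At an adjusted p under 0.1, 407 genes were called, and of the members Prdx2 (edgeR adjusted p = 0.0849) then joined Gpx1 and Prdx5. Relative log expression factors gave 1 member and 1 other gene, as did library totals, and the unfiltered and the thinned counts gave 1 other gene. Over the 8 fits that left out 1 library, 66 to 203 genes, 0 to 1 members and 0 to 2 other genes were called. With library totals only, the median of all genes shifted to -0.11 and 64 of 227 called genes were higher, and on RPKM plus 1 and plus 0.1 the medians were 0.11 and 0.16, with 388 of 447 and 370 of 432 higher. The cause of these shifts was not tested.

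Libraries with the same replicate number did not deviate together (correlations 0.0119, 0.0126, 0.0109 and 0.0315, with 3 of 8 libraries closest to their own number). With the number as a replicate block, 74 genes, 1 member (Gpx1, adjusted p = 0.04) and 1 other gene were called (Prdx5 adjusted p = 0.089, Rac2 0.131), and with the block and the length and GC correction 17, 0 and 0 (Selenop adjusted p = 0.0711).

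Signs turned for Sod1 and 9 other named genes. With library totals only, log2 fold changes were -0.06 for Sod1, -0.11 for Txn2, -0.04 for Gclc, -0.07 for Gclm, -0.03 for Nfe2l2 and -0.04 for Keap1. Txn2 was at -0.02 with relative log expression factors and with DESeq2. On RPKM plus 1, Ccs was at 0.06 and Bach1 at 0.03, and plus 0.1 they were at 0.07 and 0.03. With the length and GC correction Txn2 was at -0.09, Keap1 at -0.01 and Cyba at -0.04, and with the replicate block added at -0.08, -0.00377 and -0.04. Keap1 was at -0.07 on thinned counts. Without plasma-positive replicates 2 and 3, Txn2 was at -0.07, Gclc at -0.09, Nfe2l2 at -0.06 and Keap1 at -0.11. Over the 8 fits without 1 library, the ranges were -0.03 to 0.19 for Sod1, -0.09 to 0.12 for Txn2, -0.2 to 0.11 for Ccs, -0.04 to 0.19 for Gclc, -0.17 to 0.23 for Gclm, -0.08 to 0.17 for Nfe2l2, -0.05 to 0.21 for Keap1, -0.22 to 0.01 for Bach1 and -0.31 to 1.63 for Hmox1, which had 0.61 with all libraries, 3.51 with limma-voom, 2.55 with the replicate block, 2.39 with block and correction and 2.17 on RPKM plus 0.1.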
